A study of Homo sapiens with 12 samples.

Results

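The interaction of BMAL1 knockdown with cell line asks of each transcript whether depletion of BMAL1 changed it differently in 786O cells and in WT8 cells. It was computed as the log2 response to shBMAL1 of WT8 less that of 786O, so a positive value means a more positive change in WT8. All 12 RNA-seq libraries of the series enter this contrast, 3 from each of 4 groups, and 16838 of 38021 gene names had enough counts to be tested. 786O is a human clear cell renal cell carcinoma line that has lost functional VHL. WT8 cells derive from 786O and express wildtype VHL. Each line was infected with a pLKO.1 lentivirus that carried a scrambled shRNA (shControl) or an shRNA against BMAL1 (shBMAL1) and was selected with puromycin in DMEM with serum. All 4 groups share this infection and selection. The selected cells are pools by that protocol, and the labels do not name the hairpin. The labels call the 3 samples of a group biological replicates without saying how they were separated, so p-values measure the spread between these samples.

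VHL is the substrate-recognition part of a ubiquitin ligase that marks the HIF alpha subunits for destruction in the presence of oxygen. In many clear cell carcinomas VHL is inactivated, and HIF2α, encoded by EPAS1, then accumulates and drives hypoxia genes. BMAL1 is a core activator of the circadian clock, pairs with CLOCK at E-box sequences, and belongs to the same bHLH-PAS family as the HIF subunits and their partner ARNT. The lines therefore differ in how far HIF2α is restrained, and the interaction sets the outcome of BMAL1 depletion under these states side by side. Any other difference between the lines enters the interaction as well.

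Totals were 33182005 to 36477484 counts per library, and the common biological coefficient of variation was 5.70%. Transcripts of the target ARNTL (BMAL1) fell in both lines, to 3.94 from 12.1 counts per 1000000 (CPM, scaled by TMM factors) in 786O and to 1.66 from 9.24 CPM in WT8, and the fall was larger in WT8 (interaction -0.86, SE 0.19, edgeR adjusted p 0.000369). VHL transcript was at 17.6 to 20.6 and 18.4 to 21.3 CPM in the 786O groups and was itself lower with shBMAL1 in WT8, at 631 to 661 against 916 to 1019.9 CPM. The parts that the deeper knockdown and the lower VHL transcript in WT8 play in the results that follow were not tested. A set of 32 transcripts, chosen as present in 786O shControl and at or near 0 in WT8 shControl, stood at 865 to 873 CPM in sum in 786O shBMAL1 and at no more than 2.46 CPM in WT8 shBMAL1, no more than 0.285% of the lowest of those 786O libraries. The converse choice gave 1 transcript, SLC5A10, which stood at 18.4 to 20.1 CPM in WT8 shControl, at 1.34 to 2.22 CPM in WT8 shBMAL1 and at no more than 0.287 CPM in 786O, so it is a weak check of the WT8 knockdown libraries. Among the 32 transcripts are those of the Y-linked genes EIF1AY, KDM5D, NLGN4Y, TTTY15, UTY and ZFY. The lines thus differ in more than VHL, and such differences cannot be told apart from that of VHL in the interaction. The 7 renal epithelial markers examined were above 1 CPM in every group, and summed to 5715 to 6031 CPM and 6420 to 6497 CPM in 786O with shControl and shBMAL1 and to 4721 to 4755 CPM and 3639 to 3765 CPM in the WT8 groups. VIM, also a mesenchymal marker, had the largest part of each sum, at means of 4296, 4123, 2026 and 1890 CPM in that order. With shControl, PAX8, PAX2 and KRT18 had higher means in WT8 than in 786O, and KRT8, CA12, CDH6 and VIM had lower ones. The sums therefore do not compare epithelial identity between the groups. None of 6 endothelial markers reached 1 CPM, 7 fibroblast markers summed to 9.88 to 14.1 CPM, and 6 blood cell markers to 19.7 to 42.5 CPM.

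A different response to shBMAL1 in the lines was called for 9427 genes (56.0% of the genes tested, edgeR adjusted p under 0.1), with a more positive change in WT8 for 4622 (27.4%) and a more negative one for 4805 (28.5%). Within the lines, shBMAL1 changed 8237 genes in 786O (48.9%, with 24.5% higher and 24.4% lower) and 11753 in WT8 (69.8%, with 32.9% higher and 36.9% lower). Opposite directions, called in both lines, were found for 2039 genes, which is 21.6% of the genes with a called interaction. Of these, 970 fell in 786O and rose in WT8 (5.76% of the genes tested) and 1069 rose in 786O and fell in WT8 (6.35%). Changes called in WT8 and not in 786O made up the largest share, 3855 genes or 40.9%, with 1912 higher (11.4%) and 1943 lower (11.5%). Changes called in 786O and not in WT8 were fewer, 1135 genes or 12.04%, with 613 higher (3.64%) and 522 lower (3.10%). The same direction with a different size accounted for 2236 genes or 23.7%, of which 1846 (11.0%) changed more in WT8 and 390 (2.32%) changed more in 786O. For 162 genes (0.962%) neither line passed on its own. The median size of the called interactions was 0.61 on the log2 scale, against a median SE of 0.14 over all genes, and 2935 exceeded 2-fold, of which 1138 were positive and 1797 negative.

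**Figure D1:**
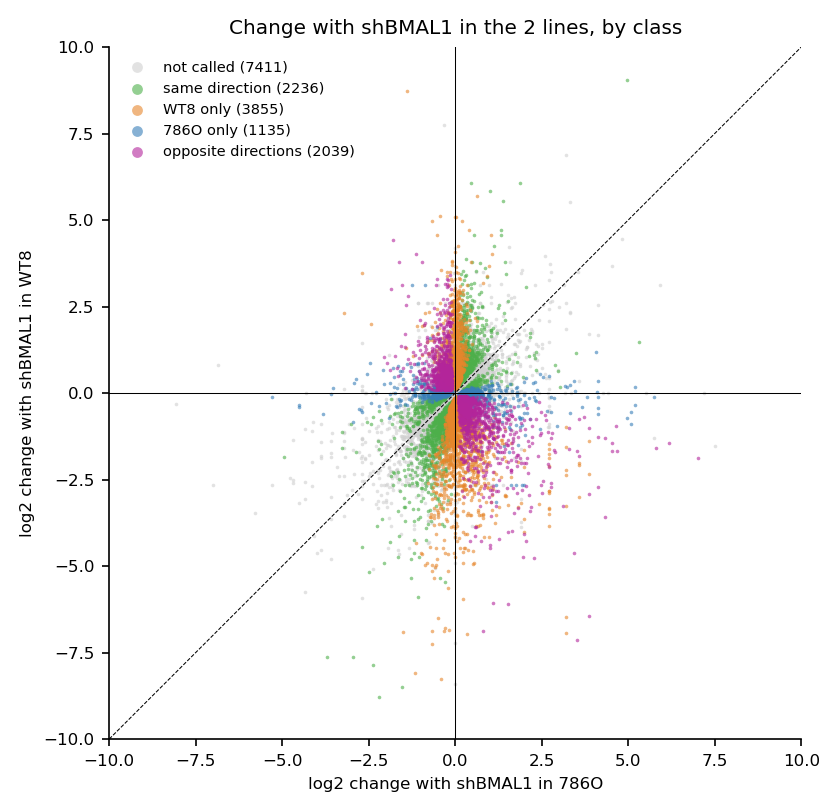
Log2 change with shBMAL1 in 786O (horizontal axis) against that in WT8 (vertical axis) for the 16838 genes tested, 1 point per gene, coloured by class, with the number of genes in the legend and equal changes on the dashed line. The cloud is taller than it is wide, and the 2039 genes called in opposite directions fill the upper left and lower right of the plot. Points far out along an axis include genes with few counts.

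To see where such a difference sits, the group whose mean log2 CPM lay farthest from the other 3 groups was noted for each of the 9427 genes. WT8 shControl stood apart for 46.8% of them, WT8 shBMAL1 for 28.7%, 786O shControl for 13.9% and 786O shBMAL1 for 10.6%. These shares serve below as the background for each gene group. Gene groups are described by how many members were called and by the median log2 change over the members tested, beside 56.0% called and medians of 0.00 in 786O, -0.04 in WT8 and -0.03 for the interaction over all genes. The medians of the groups in each line ran from 0.58 to -1.71 for complement and acute phase genes, and from 0.05 to 2.17 for mitotic genes, which were the widest gaps down and up among the 30 groups. Some genes belong to more than 1 group.

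**Figure D2:**
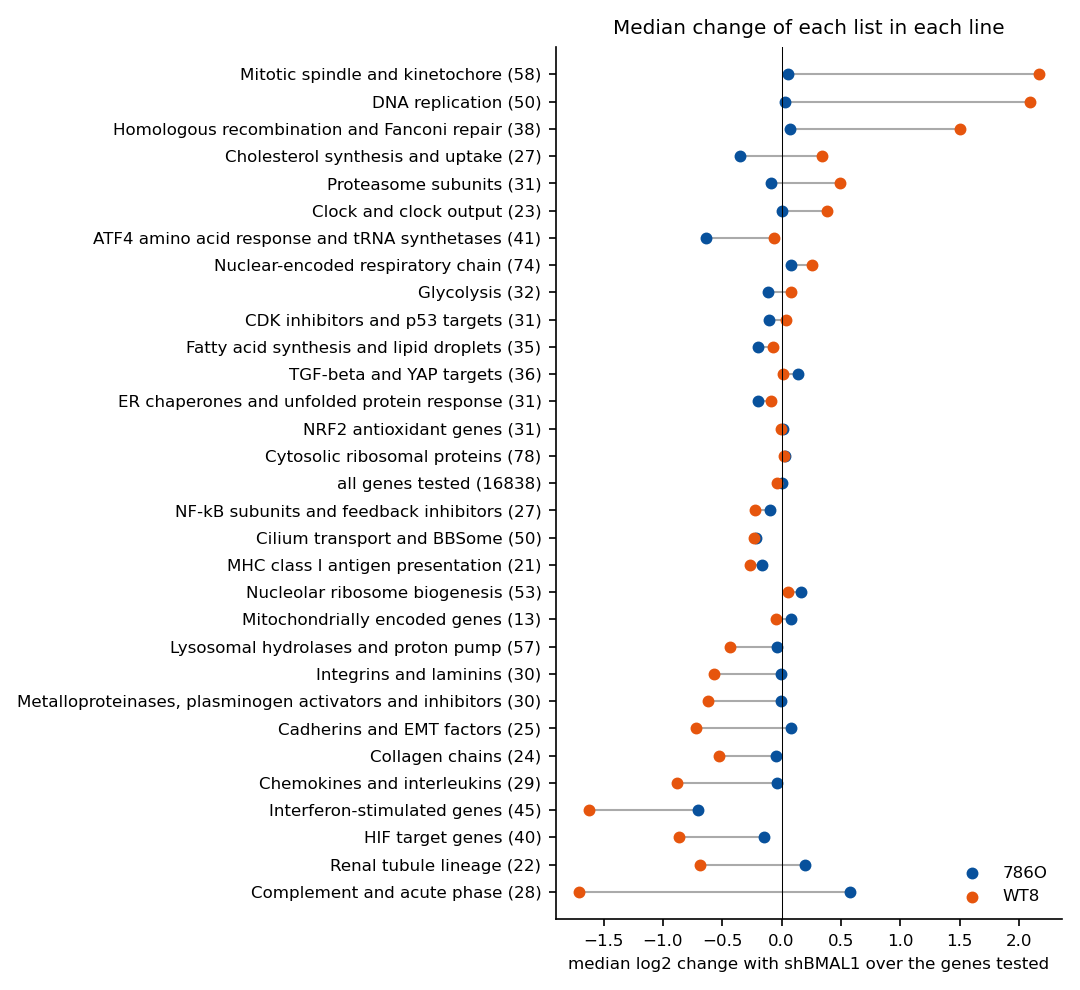
Median log2 change with shBMAL1 in 786O (blue) and in WT8 (orange) over the tested genes of each group, with the number of genes in parentheses, ordered by the median interaction. Replication, mitosis and recombination genes lie near 0 in 786O and between 1.5 and 2.17 in WT8, while the complement, renal tubule and cholesterol groups have medians of opposite sign in the lines.

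Genes of DNA replication and mitosis changed in WT8 and little in 786O. Of 50 replication genes, all tested, 49 had a called interaction and all 49 were more positive in WT8, where the 50 genes rose. In 786O 16 rose, 12 fell and the median was 0.03, against 2.10 in WT8. By class, 22 were called in WT8 only, 15 rose in both lines and more in WT8, and 12 fell in 786O and rose in WT8. Values in single libraries show which group differs. CLSPN encodes claspin, an adaptor of the replication checkpoint. It measured 83.2, 88.4 and 87.2 CPM with shControl and 81.2, 76.4 and 83.5 CPM with shBMAL1 in 786O, and 5.44, 6.56 and 6.17 CPM and 78.3, 78.9 and 80.9 CPM in the respective WT8 groups. The 786O groups overlapped, and the 3 WT8 shControl libraries lay far below the other 9 libraries. Its change was -0.10 in 786O and 3.71 in WT8 (interaction 3.82, SE 0.09, edgeR adjusted p 2.04e-28).

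CDC6, which loads the MCM helicase onto origins, took part in the opposite class. It had 101, 104 and 105 CPM with shControl and 90.0, 85.0 and 87.9 CPM with shBMAL1 in 786O, and 7.34, 8.47 and 8.32 CPM and 76.5, 80.0 and 79.0 CPM in the respective WT8 groups. The small fall in 786O (-0.24) and the large rise in WT8 (3.29) each set the groups of its line apart without overlap. GINS2, a subunit of the replicative helicase, rose in both lines, by 0.50 in 786O and 3.78 in WT8, and had 3.02 to 4.16 CPM in WT8 shControl against 46.1 to 55.6 in WT8 shBMAL1. MCM7, part of that helicase and the replication gene with the highest mean CPM, moved from 676 to 835 CPM in 786O and from 96.3 to 484 CPM in WT8. CDC45, which joins MCM7 and GINS2 in the working helicase, changed by -0.10 in 786O, where no change was called, and by 3.81 in WT8. Across the 50 genes the mean log2 CPM was 6.13 ± 0.0146 (SD, n = 3) with shControl and 6.18 ± 0.0136 with shBMAL1 in 786O, and 3.92 ± 0.0326 and 6.09 ± 0.0126 in WT8. WT8 shControl was the group apart for 48 of the 49 called genes, against 46.8% of all called genes.

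All 58 mitotic genes had a called interaction in the same direction, with changes in 786O between small falls and small rises (23 higher, 12 lower) and a rise of every gene in WT8. The median was 0.05 in 786O and 2.17 in WT8, and WT8 shControl stood apart for all 58. ANLN, encoding the contractile ring protein anillin, had 599, 595 and 590.5 CPM in 786O shControl and 600.3, 588 and 602 CPM in 786O shBMAL1. In WT8 it had 95.8, 109 and 102 CPM with shControl and 601, 627 and 664 CPM with shBMAL1. Only the WT8 shControl libraries were low for this gene. NCAPG, a condensin subunit, fell slightly in 786O (-0.11) and rose in WT8 (3.00), and SPC24, a kinetochore protein, rose in both lines (0.72 and 3.75). In bulk RNA, fewer cells of a kind and less RNA per cell cannot be told apart, and this holds for the share of dividing cells.

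Promoters of many mitotic genes carry a cell cycle homology region (CHR), the element TTTGAA that repressor and activator complexes of the cell cycle recognise. RefSeq promoters on GRCh38.p14, from 250 bases before the start to 50 after it, were matched for 12300 of the 16838 genes. TTTGAA on either strand occurred in 34 of 49 mitotic promoters, or 69.4%, and in 9.95% of all matched promoters. It occurred in 2 of 42 replication promoters, or 4.76%, although the replication and mitotic genes moved alike. The windows below, on the strand of the gene with the element or its reverse complement in capitals, are from the mitotic genes NCAPG (chr4:17810932-17810961, plus strand), ANLN (chr7:36389830-36389859, plus strand) and ZWINT (chr10:56361273-56361302, minus strand), and were chosen for display after the values were seen.
NCAPG: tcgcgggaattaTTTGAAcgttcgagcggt
ANLN: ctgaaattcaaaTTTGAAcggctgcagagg
ZWINT: gtcgactgtgacTTCAAAgtaatcttaggg
The element begins 35 bases before the start of NCAPG, 20 before that of ANLN and 31 before that of ZWINT, whose product holds a checkpoint complex at the kinetochore. The ANLN window also holds the reverse complement just before the capitals, and only the match nearest the start is marked. A match is a description of the sequence and not a site shown to be bound.

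Genes of homologous recombination and the Fanconi pathway, which repair broken or crosslinked DNA, shared this pattern less completely. Of 38 tested, 32 were more positive in WT8 and 2 more negative, with medians of 0.07 in 786O and 1.5 in WT8. BRIP1, a DNA repair helicase, fell in 786O (-0.20) and rose in WT8 (3.27). NBN, part of the break-sensing MRN complex, fell in both lines (-0.34 and -0.20). Its interaction of 0.14 passed narrowly (edgeR adjusted p 0.0718) and was not called without 786O shControl replicate 1 (0.14), 786O shBMAL1 replicate 2, WT8 shControl replicate 3 or WT8 shBMAL1 replicate 3 (0.12 in each).

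**Figure D3:**
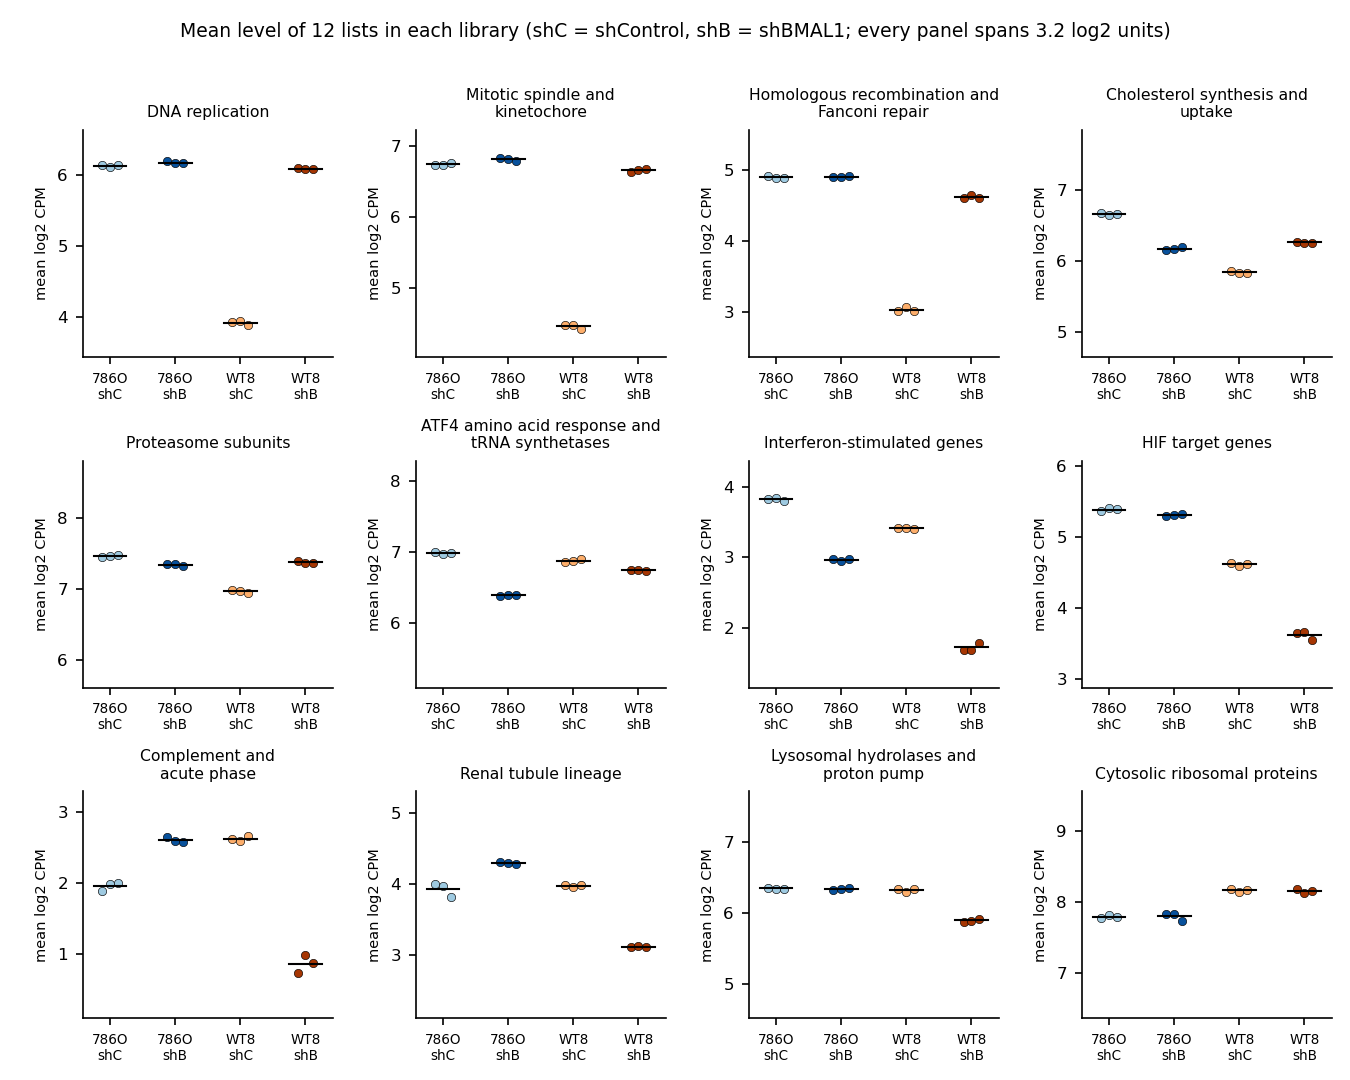
Mean log2 CPM of 12 gene groups in each of the 12 libraries (points) with the mean of the 3 replicates (bar), for 786O shControl, 786O shBMAL1, WT8 shControl and WT8 shBMAL1; each panel spans 3.2 log2 units. Replication and mitotic genes are low in WT8 shControl and alike in the other groups, cholesterol genes fall in 786O and rise in WT8, interferon genes fall in both lines, and complement genes rise in 786O and fall in WT8.

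Sterol genes moved in opposite directions. The cholesterol pathway builds sterols from acetyl-CoA, and its enzymes and the LDL receptor are driven together by the factor SREBP2. Of 27 genes tested, 22 fell and 0 rose in 786O, while 20 rose and 5 fell in WT8. The interaction was called for 23, of which 21 were more positive in WT8, and 17 of these fell in 786O and rose in WT8, a class that held 5.76% of all genes. Median changes were -0.35 and 0.34. ACAT2, whose product condenses acetyl-CoA at the first step, had 159, 166 and 167 CPM with shControl and 107, 105 and 104 CPM with shBMAL1 in 786O, and 47.0, 47.1 and 46.1 CPM and 148, 141 and 138 CPM in the respective WT8 groups. No library of one group reached the range of the other group in its line. HMGCS1, the next enzyme, changed by -0.39 in 786O and 1.24 in WT8, at 241 to 258 CPM against 323 to 329 under shControl and at 144 to 149.8 CPM against 59.9 to 65.0 under shControl. WT8 shControl was the group apart for 15 of the 23 called genes.

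Proteasome subunits, which form the barrel and cap of the protease that degrades ubiquitinated proteins, showed the same order with smaller changes. Of 31 tested, 29 had a called interaction, and all 29 were more positive in WT8. In 786O 16 fell and 2 rose, and in WT8 25 rose and 2 fell, with medians of -0.09 and 0.49. The interactions of the group lay between 0.04 and 1.11. PSMC3, an ATPase of the cap, had 293, 305 and 289 CPM with shControl and 265, 268 and 259 CPM with shBMAL1 in 786O, and 124, 141 and 125 CPM and 261, 245 and 246 CPM in the respective WT8 groups. Both steps were clear of the replicate spread, the one down and the other up. PSMB3, a core subunit, was called in WT8 only (0.81, against 0.00 in 786O), and PSMD2, a cap subunit, in 786O only (-0.41, against 0.06 in WT8). With an interaction over 1.5-fold required, 13 of the 31 were called, against 4932 of all 16838 genes tested.

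Genes of amino acid supply changed more in 786O than in WT8. ATF4 is the factor that switches on amino acid synthesis, import and tRNA charging when amino acids run short. Of 41 genes of this response and of the cytosolic tRNA synthetases, 37 fell and 3 rose in 786O, against 20 lower and 14 higher in WT8. The median was -0.63 in 786O and -0.07 in WT8, and 29 of 35 called interactions were positive. By class, 12 fell in 786O and rose in WT8, 7 fell in 786O only and 9 fell in both lines and more in 786O. CTH, the enzyme that makes cysteine from cystathionine, had 19.7, 19.6 and 21.1 CPM in 786O shControl and 3.93, 4.43 and 4.71 CPM in 786O shBMAL1. In WT8 it had 19.5, 21.0 and 19.2 CPM with shControl and 16.3, 13.0 and 12.5 CPM with shBMAL1. CTH fell in both lines without overlap, with changes of -2.21 in 786O and -0.52 in WT8 (interaction 1.69, SE 0.14, edgeR adjusted p 1.78e-12). SLC7A5, a carrier of large neutral amino acids, changed by -1.06 and -0.90, with an interaction of 0.16 (edgeR adjusted p 0.022). ALDH1L2, a mitochondrial folate enzyme, had 477 to 535 and, after shBMAL1, 164 to 195 counts in 786O, and 0 to 3 and 8 to 13 in WT8, so no fold is given for WT8. The group apart was 786O shBMAL1 for 15 of the 35 called genes and 786O shControl for 11, against 10.6% and 13.9% of all called genes.

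**Figure D4:**
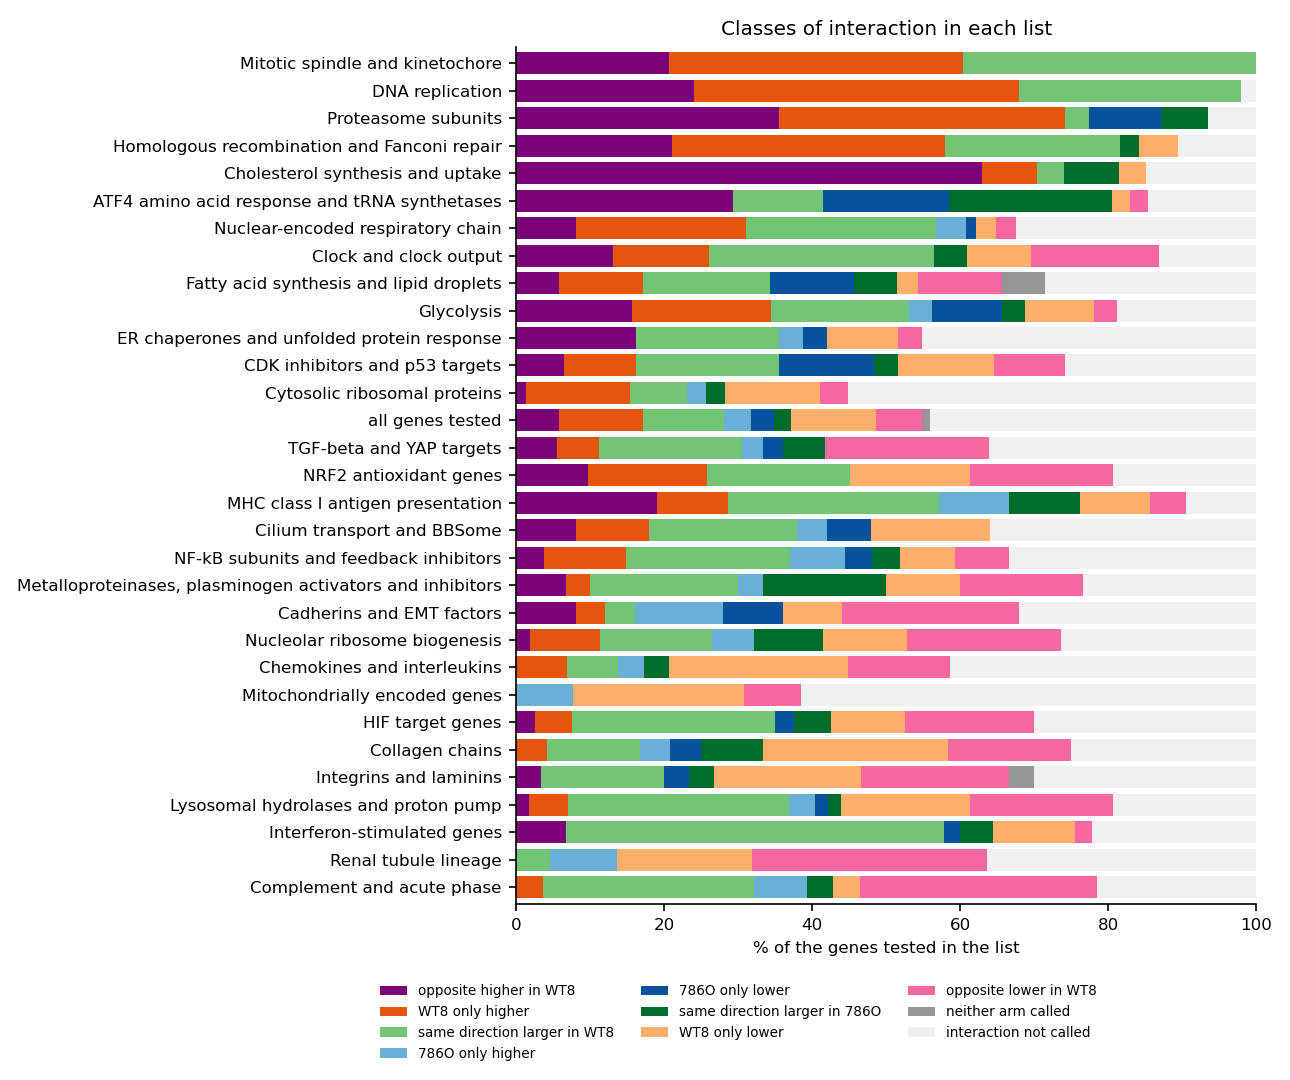
Share of the tested genes of each group that fell into each class of interaction, in per cent, ordered by the excess of positive over negative interactions, with all genes tested as one bar. Cholesterol genes hold 17 of 27 in the class that fell in 786O and rose in WT8, interferon genes hold 23 of 45 in the class with the same direction and a larger change in WT8, and cytosolic ribosomal proteins have fewer called genes than the bar for all genes.

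Interferon-stimulated genes, the antiviral effectors and sensors induced by interferons, moved in one direction by different amounts. Of 45 tested, 37 fell in 786O and 38 fell in WT8, with medians of -0.71 and -1.63. The interaction was negative for 30 and positive for 5, and 23 genes belonged to the class with the same direction and a larger change in WT8, a class that held 11.0% of all genes. OASL, an antiviral member of the oligoadenylate synthetase family, had 3.47, 3.4 and 4.44 CPM with shControl and 1.06, 0.892 and 0.776 CPM with shBMAL1 in 786O, and 16.5, 15.7 and 15.9 CPM and 0.399, 0.775 and 0.428 CPM in the respective WT8 groups. It started higher in WT8, where the shBMAL1 libraries lay below all those of 786O, with changes of -2.05 and -4.90. TRIM22, a ubiquitin ligase with antiviral activity, had 726 to 852 and 607 to 668 counts in the 786O groups, and 9 to 24 and 0 to 5 counts in those of WT8, too few for a fold.

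MHC class I genes, which load peptides for T cells, were mixed. Of 21 tested, 8 interactions were positive (38.1%) and 11 negative (52.4%), against 27.4% and 28.5% of all genes. The medians were -0.16 in 786O and -0.27 in WT8. TAP2, a subunit of the peptide pump, fell in 786O (-0.36) and rose in WT8 (0.64), while HLA-E, a non-classical class I chain, was not called in 786O (0.00) and fell in WT8 (-1.0). Among 27 genes of NF-kB signalling 12 interactions were negative (44.4%) and 6 positive (22.2%), against 28.5% and 27.4% of all genes. SOD2, the mitochondrial superoxide dismutase and an NF-kB target, fell in both lines, at 122 to 141 CPM against 211 to 215 under shControl in 786O and at 78.8 to 84.6 CPM against 421 to 435 under shControl in WT8. NFKBIZ, a nuclear IkB protein, rose in 786O (0.57) and fell in WT8 (-1.23).

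Of the chemokines and interleukins 29 of 38 were tested, and 58.6% of these were called, near the 56.0% of all genes. By direction 14 interactions were negative (48.3%, against 28.5% of all genes) and 3 positive (10.3%, against 27.4%). In WT8 19 fell and 2 rose, against 6 lower and 7 higher in 786O. The median interaction was -0.79, and -0.43 without the 9 genes that had a group with at most 3 counts in each library. With counts halved before the filter it was -0.33, and without the filter -0.53. IL11, a cytokine of the IL-6 family, had 13.1, 11.6 and 10.5 CPM with shControl and 49.5, 55.9 and 48.0 CPM with shBMAL1 in 786O, and 14.0, 12.2 and 13.0 CPM and 3.91, 4.92 and 4.71 CPM in the respective WT8 groups. The shControl levels of the lines overlapped, and the shBMAL1 levels lay on opposite sides of them (2.13 and -1.53, interaction -3.66, SE 0.14, edgeR adjusted p 1.69e-22). IL32, a pro-inflammatory cytokine, was an exception to the negative interactions, with -0.04 in 786O, not called, and 1.98 in WT8, where it rose, at 264 to 292 CPM against 68.7 to 73.1 under shControl. CCL5, a chemokine for T cells, had 51 to 82 and 7 to 17 counts in the 786O groups and fell, at 0 to 3 counts against 221 to 291 under shControl in WT8.

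Complement and acute phase genes, secreted proteins of innate defence that the liver and inflamed epithelium make, rose more often than they fell in 786O and mostly fell in WT8. Of 35 listed 28 were tested, of which 15 rose and 7 fell in 786O and 3 rose and 21 fell in WT8. The interaction was negative for 20 and positive for 2, and 9 genes rose in 786O and fell in WT8 (6.35% of all genes did). Another 8 changed the same way in both lines and more in WT8 (11.0% of all genes did). The median interaction of -2.08 became -0.82 without the 7 genes that had a group with at most 3 counts in each library. CLU, the chaperone clusterin and the group's member with the highest mean CPM, had 32.9, 32.1 and 25.4 CPM with shControl and 58.0, 55.8 and 60.9 CPM with shBMAL1 in 786O, and 863, 845 and 858 CPM and 595, 581 and 609 CPM in the respective WT8 groups. Its level in WT8 was higher throughout, and the steps had opposite signs (0.95 and -0.52). LBP, which hands bacterial lipopolysaccharide to its receptor, had 10 to 19 and, after shBMAL1, 169 to 201 counts in 786O, and 138 to 164 and 0 to 2 in WT8. CFI, the protease that inactivates complement component C3b, had 969 to 1008, 1644 to 1842, 109 to 142 and 0 to 3 counts in the same order.

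HIF target genes fell in WT8 and were divided in 786O. Of 44 listed 40 were tested, of which 31 fell and 5 rose in WT8, against 18 lower and 12 higher in 786O. The interaction was negative for 22 (55.0%, against 28.5% of all genes) and positive for 6 (15.0%, against 27.4%), with a median of -0.84. WT8 shBMAL1 was the group apart for 20 of the 28. The list mean was already lower in WT8 shControl, at 4.61 log2 CPM against 5.38 in 786O shControl, and reached 3.61 in WT8 shBMAL1. ANGPTL4, a secreted inhibitor of lipoprotein lipase, had 19.8, 18.7 and 16.3 CPM with shControl and 38.4, 36.6 and 40.4 CPM with shBMAL1 in 786O, and 202, 187 and 201 CPM and 25.8, 25.4 and 26.1 CPM in the respective WT8 groups. Its change was 1.07 in 786O and -2.93 in WT8, and the order of the lines was the reverse after shBMAL1 (interaction -4.01, SE 0.09, edgeR adjusted p 6.08e-29). SLC2A1, the glucose carrier GLUT1, was not called in 786O (0.07) and fell in WT8 (-1.47), at 114 to 119 CPM against 286 to 342 under shControl. STC1, a secreted glycoprotein hormone, fell in 786O, at 99 to 114 counts against 199 to 253 under shControl and in WT8, at 0 to 3 counts against 35 to 56 under shControl.

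The core of the hypoxia response element, ACGTG, lies in 16 of 29 HIF target promoters matched, or 55.2%, and in 26.2% of all matched promoters. It overlaps the E-box CACGTG of BMAL1 and CLOCK, which 24.1% of the HIF target promoters and 9.89% of all matched promoters held. Every CACGTG is also an ACGTG match, so these shares are not separate. The E-box share was higher for ribosome biogenesis (32.6%), lysosomal and clock genes, and lower for the other gene groups. The ACGTG share was highest for HIF targets and was 46.5% for ribosome biogenesis genes, with metalloproteinase and clock genes in between. Among the classes, ACGTG was in 29.97% of promoters of genes that changed the same way and more in WT8, and in 24.9% of those that rose in 786O and fell in WT8. Windows on the strand of the gene are shown for ANGPTL4 (chr19:8363909-8363938, plus strand), BHLHE40 (chr3:4979276-4979305, plus strand) and DDIT4 (chr10:72273787-72273816, plus strand), chosen for display after the values were seen, with the element or its reverse complement in capitals.
ANGPTL4: ggaaagaagagtCACGTctcccacggttcg
BHLHE40: cacagggtagaaCACGTagctccaacccac
DDIT4: agaacgttgcttACGTGcgcccggagtcca
These genes belong to different classes. BHLHE40, a clock-linked repressor, changed by 0.00 in 786O and -1.05 in WT8, and DDIT4, an inhibitor of mTORC1, by -0.71 and -1.34.

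The subunits that bind these elements also differed between the lines. EPAS1 (HIF2α) was not called in 786O (-0.08) and fell in WT8 (-1.51), with means of 192 and 182 CPM in the 786O groups and 259 and 90.8 CPM in those of WT8. HIF1A rose in 786O (0.43) and fell in WT8 (-1.09). ARNT fell in 786O only (-0.47, against -0.11 in WT8), and ARNT2, a related partner, fell in WT8 only (-1.41). CLOCK rose in WT8 only (0.45), and NPAS2, which can stand in for CLOCK, rose in 786O (0.68) and fell in WT8 (-0.44).

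Genes of the renal tubule lineage had negative interactions. Of 30 renal tubule genes 22 were tested, and all 14 called interactions were negative, 7 of them with a rise in 786O and a fall in WT8. In 786O 11 rose and 4 fell, and in WT8 1 rose and 16 fell, with medians of 0.20 and -0.69. CDH16, the kidney cadherin of tubular epithelium, had 9.19, 10.0 and 9.75 CPM with shControl and 20.4, 18.2 and 18.8 CPM with shBMAL1 in 786O, and 75, 70.4 and 75.5 CPM and 10.8, 8.56 and 8.27 CPM in the respective WT8 groups. It rose in 786O (0.99) and fell in WT8 (-3.00) to a range that overlapped 786O shControl. CD24, a surface sialoglycoprotein of tubular progenitors, rose slightly in 786O (0.19) and fell in WT8, at 141 to 149.8 CPM against 1009.8 to 1054 under shControl. Of the 25 cadherins, keratins, claudins and EMT factors tested, 12 interactions were negative and 5 positive, and 6 genes rose in 786O and fell in WT8. In 786O 11 of these 25 rose and 10 fell, and in WT8 4 rose and 13 fell. CLDN2 of this group, a cation-selective tight junction protein of the proximal tubule, rose in 786O, at 28.8 to 31.4 CPM against 3.95 to 5.63 under shControl. It fell in WT8, at 18.2 to 21.8 CPM against 42.8 to 46.1 under shControl. VIM, the mesenchymal filament vimentin, changed by -0.07 in 786O, where no change was called, and by -0.10 in WT8 (edgeR adjusted p of the interaction 0.726).

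**Figure D5:**
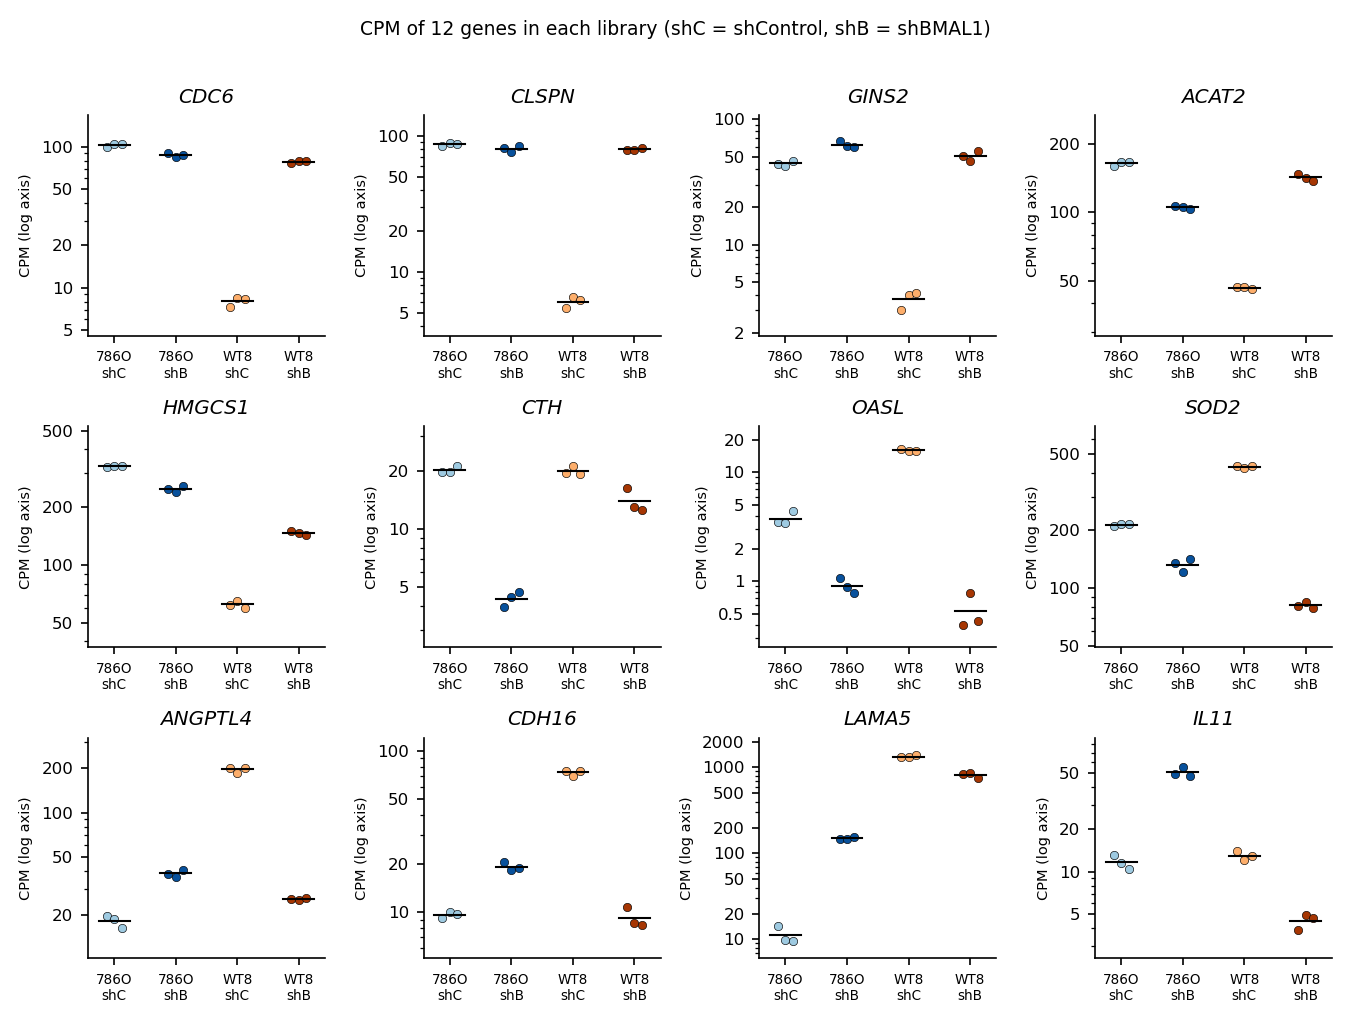
CPM on a log axis of 12 of the named genes in each library (points) with the mean of the 3 replicates (bar), for 786O shControl, 786O shBMAL1, WT8 shControl and WT8 shBMAL1. CDC6, CLSPN and GINS2 are low in WT8 shControl, ACAT2 and HMGCS1 fall in 786O and rise in WT8, CTH falls most in 786O, OASL and SOD2 fall in both lines, and ANGPTL4, CDH16, LAMA5 and IL11 rise in 786O and fall in WT8.

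Collagen, integrin and laminin genes mostly fell in WT8, while rises and falls were about equal in number in 786O. Of 24 collagen chains tested 17 fell and 3 rose in WT8, against 7 and 7 in 786O. Of 30 integrins, laminins and related matrix proteins 20 fell and 5 rose in WT8, against 10 and 9 in 786O. LAMA5, the alpha chain of the laminins in kidney basement membrane, had 14.4, 9.92 and 9.67 CPM with shControl and 146, 145 and 157 CPM with shBMAL1 in 786O, and 1322, 1308 and 1385 CPM and 846, 866 and 750.4 CPM in the respective WT8 groups. shBMAL1 thus narrowed the distance between the lines from both sides for this gene (3.72 and -0.71). LAMA1, the alpha chain of embryonic laminin, rose in 786O (1.5) and fell in WT8 (-2.15), as did COL6A1, a chain of microfibrillar collagen VI (0.60 and -1.63). COL4A2, a basement membrane collagen, was not called in 786O (-0.01) and fell in WT8 (-0.43). FN1, encoding fibronectin, was also called in WT8 only (-0.25, against 0.15 in 786O). Among 30 metalloproteinases, plasminogen activators and inhibitors 15 interactions were negative and 8 positive. MMP1, the interstitial collagenase, rose in 786O, at 7.29 to 8.29 CPM against 2.37 to 2.98 under shControl and fell in WT8, at 0.159 to 0.428 CPM against 17.8 to 20.7 under shControl.

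Lysosomal hydrolases and the proton pump, which acidify and digest, fell in WT8. Of 57 tested 42 fell and 10 rose in WT8, against 22 lower and 19 higher in 786O, and 38 interactions were negative and 8 positive. GAA, the acid alpha-glucosidase, had 39.8 to 44.7 CPM with shControl and 46.7 to 53.7 CPM with shBMAL1 in 786O, and 189 to 201 CPM and 46.4 to 54.4 CPM in the respective WT8 groups. NEU1, a sialidase, was called in WT8 only (-1.92), and so was PSAP (-0.93), the precursor of the saposins. PSAP stood at 2543 to 2592 CPM in WT8 with shControl and 1288 to 1399 CPM with shBMAL1, below the 1539.5 to 1561 CPM of 786O with shControl.

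Groups of basic metabolism had small median interactions, although single genes of glycolysis and of fatty acid metabolism had large ones. Of 78 cytosolic ribosomal proteins 35 were called, or 44.9% against 56.0% of all genes, with 18 positive and 17 negative interactions and a median of -0.02. Nucleolar factors of ribosome biogenesis rose in 786O (31 of 53, with 4 lower) and were divided in WT8 (25 higher, 21 lower). Of their interactions 39 were called (73.6%), 27 negative and 12 positive, with a median of -0.16. Of 74 nuclear-encoded respiratory chain subunits 50 were called (67.6%), 41 positive and 9 negative, with a median interaction of 0.20 and values from -0.37 to 0.65. An interaction over 1.5-fold was called for 2 of the 74, against 4932 of all 16838 genes tested. Of the 13 mitochondrially encoded genes 5 were called (38.5%, against 56.0% of all genes), all negative. This count ran from 3 to 9 when single libraries were left out. It was 3 without 786O shControl replicate 1 or 3, 786O shBMAL1 replicate 1 or 2, or WT8 shBMAL1 replicate 2. It was 9 without 786O shBMAL1 replicate 3. Glycolysis genes had 15 positive and 11 negative interactions of 32 (81.25% called), with a median of 0.18. PKM, the pyruvate kinase, fell in 786O only (-0.27), while PFKFB4, which sets the level of a glycolytic activator, fell in both lines and more in WT8 (-0.45 and -1.85). Fatty acid and lipid droplet genes had 15 positive and 10 negative interactions of 35 tested (71.4% called), with a median of 0.12. Their quartiles were -0.69 and 0.43, against -0.51 and 0.37 over all genes. ACACB, the mitochondrial acetyl-CoA carboxylase, fell in 786O (-0.96) and rose in WT8 (0.86), and G0S2, an inhibitor of the lipase ATGL, did the reverse (0.61 and -2.15).

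The genes with the largest interactions in each class, with enough counts in every group for a fold, complete the picture. E2F8, a repressor of the E2F family, led the genes higher in WT8 only, at 31.7 to 36.6 and 32.9 to 35.9 CPM in the 786O groups and 1.17 to 1.77 and 23.8 to 26.3 CPM in those of WT8, with CDC45 and CLSPN behind it. SLC6A13, a GABA and taurine carrier, BGN, a small matrix proteoglycan, and DHRS3, a retinaldehyde reductase, led the genes lower in WT8 only (-4.66, -4.46 and -3.76). CDC6, DTL and E2F2 led the genes that fell in 786O and rose in WT8. MMP1, IGFBP1 and NR1H4, the bile acid receptor, led the reverse class, and IGFBP1, which binds insulin-like growth factors, changed by 1.01 and -4.39. GPRC5C, an orphan receptor, and UGT2A3, a glucuronosyltransferase, were called higher in both lines and changed more in 786O. For UGT2A3 the WT8 groups overlapped at low levels, with 0.299 to 0.598 CPM with shControl and 0.428 to 0.957 CPM with shBMAL1. GPRC5C had 3.44 to 4.77 CPM with shControl and 32.5 to 35.0 CPM with shBMAL1 in 786O, and 52.9 to 57.0 CPM and 60.2 to 65.0 CPM in the respective WT8 groups. COL11A2, a minor collagen chain, and CNN1, the smooth muscle protein calponin, rose in 786O only (2.31 and 2.29). CLEC4E, a lectin receptor, fell in 786O only, at 5.86 to 8.03 CPM against 24.3 to 27.8 under shControl, and so did PXDN, a matrix peroxidase (-1.14), whose interaction of 1.98 became 1.67 and not called without WT8 shBMAL1 replicate 2, and 1.55 and not called without replicate 3. ARHGAP19-SLIT1, a readthrough transcript whose counts cannot be told apart from those of the genes it spans, shared this class (-1.52).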

How the data were processed

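RNA-seq of 786O and WT8 cells with shControl or shBMAL1 was analysed, 3 libraries per group, grouped by the labels. The authors deposited linear total reads, which are estimated counts for each gene with no scaling across libraries. Per the labels, column-purified RNA went into stranded mRNA libraries. By the methods of the study, read pairs were aligned to GRCh37 with SeqMan NGen 17, and counts were exported from ArrayStar 17. The submitters' processing notes instead name STAR, DESeq2 and hg38. Annotation, use of strand in counting and treatment of reads with several alignments are not given in the sources used here, so overlapping and near-identical genes are uncertain. A value of 0.028 stood for 0 in the deposited file (47.0% of values), and 5.67% of the other values were not whole. The stand-in was set to 0, lines that share a name were summed (98 lines), and values were rounded to whole counts, although plain counts had been assumed when tests were chosen.

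Of 26925 genes with a count, filterByExpr left 16838. Libraries were scaled by TMM (factors 0.948 to 1.04), and a model with the 4 group means was fitted by edgeR 4.0.16 in R 4.3.3 and tested with its robust quasi-likelihood F test. Benjamini-Hochberg adjustment covered the 16838 genes, and calls were made under 0.1. All log2 changes, SE and adjusted p-values are from this fit. The fit was tested on simulated counts in which few genes had an interaction and all shared the same dispersion. Interactions as widespread as those called here were not simulated. CPM values are scaled by TMM, and sums of cell type markers by plain library totals. Alternatives were RLE factors, DESeq2 1.42.0, no filter, a replicate block, halved counts (mates of a pair may have been counted separately), stricter thresholds, and each library left out. Genes with a group at no more than 3 counts are given as counts. Precision rests on 3 libraries per group, on their spread (common biological coefficient of variation 5.70%) and on library totals of 33182005 to 36477484.

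The members, gene groups and tests were chosen with earlier results of these data known, so the groups carry counts and medians and no test. The 30 groups were written from memory. Genes named are ARNTL, VHL, EPAS1, HIF1A, ARNT, ARNT2, CLOCK and NPAS2, the 3 largest interactions in each class among genes with a mean of at least 50 counts and of at least 10 in every group (without LOC, LINC, MIR and antisense names), and in each gene group the 2 largest called interactions with a mean of at least 50 counts and the member with the highest mean CPM. Some genes that the rule named are not reported here. ZWINT, BHLHE40 and DDIT4 were added after their values were seen. Line markers had at least 10 CPM in each shControl library of a line and at most 3 counts in each of the other.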

Additional observations from a re-analysis of the deposited data

Results flagged for a closer look

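The effect of shBMAL1 differed between 786O and WT8 by the interaction test itself for 9427 genes. The values below are log2 interactions of the named genes for which edgeR called it, and give the size and direction of that difference. Values of genes that have a group at no more than 3 counts in each library (LBP, CFI, CCL5, STC1, MMP7 and ALDH1L2), and of TRIM22 with 0 to 5 counts in WT8 shBMAL1, depend on the prior count of the fit and are not bounds.

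Among genes that fell in 786O and rose in WT8, the named ones were NDUFA9 (0.65), SDF2L1 (0.98), TAP2 (1.00), HERPUD1 (1.02), PSMC3 (1.11), PER3 (1.38), DDB2 (1.61), HMGCS1 (1.63), ACACB (1.82), ACAT2 (2.24), NCAPG (3.11), BRIP1 (3.47), CDC6 (3.53), DTL (3.57), E2F2 (3.81) and ALDH1L2 (4.66). Genes that rose in 786O and fell in WT8 were LBP (-10.65), CFI (-7.68), MMP1 (-7.62), IGFBP1 (-5.40), NR1H4 (-4.84), LAMA5 (-4.43), ANGPTL4 (-4.0), CDH16 (-3.99), CLDN2 (-3.80), IL11 (-3.66), LAMA1 (-3.65), AKR1C3 (-3.08), CD24 (-3.02), G0S2 (-2.76), ABCC2 (-2.49), COL6A1 (-2.24), GAA (-2.22), NT5E (-2.13), TP53INP1 (-1.92), NFKBIZ (-1.79), HIF1A (-1.52), CLU (-1.47), NPAS2 (-1.12), NIFK (-0.68), TGFBI (-0.63), COX3 (-0.52) and CSNK1D (-0.50). Higher in WT8 and not called in 786O were CLOCK (0.45), RPSA (0.58), NDUFB3 (0.60), RPS26 (0.60), PSMB3 (0.81), IL32 (2.02), ANLN (2.62), ANKRD1 (2.75), RMI2 (3.41), CLSPN (3.82), CDC45 (3.91) and E2F8 (4.07). Lower in WT8 and not called in 786O were SLC6A13 (-4.45), DHRS3 (-3.77), BGN (-3.72), COL6A3 (-2.11), NEU1 (-1.92), SLC2A1 (-1.54), EPAS1 (-1.44), ARNT2 (-1.41), HLA-E (-1.0), PSAP (-0.87), UTP3 (-0.83), ND3 (-0.67), VHL (-0.65), ADAM9 (-0.46), COL4A2 (-0.42), FN1 (-0.39), RPL8 (-0.35), KIF3B (-0.25) and TNIP1 (-0.16). Higher in 786O and not called in WT8 were MMP7 (-2.92), COL11A2 (-2.52), CNN1 (-2.40), CALR (-0.22) and COX1 (-0.18). Lower in 786O and not called in WT8 were PKM (0.34), ARNT (0.36), PLK2 (0.38), FASN (0.48), PSMD2 (0.48), CLEC4E (1.85), ARHGAP19-SLIT1 (1.93) and PXDN (1.98). The same direction with a larger change in WT8 was seen for CCL5 (-5.49), STC1 (-3.70), TRIM22 (-2.96), OASL (-2.85), SOD2 (-1.71), BBS1 (-1.68), GLI1 (-1.67), PFKFB4 (-1.40), ARNTL (-0.86), AKR1B1 (-0.56), WEE1 (1.5), MCM7 (2.03), SPC24 (3.03), GINS2 (3.28) and FAM111B (3.56). The same direction with a larger change in 786O was seen for GPRC5C (-2.83), UGT2A3 (-2.34), NBN (0.14), SLC7A5 (0.16) and CTH (1.69).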

How the results depend on the processing

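None of the called interactions among the 115 named genes changed sign under any alternative. The other called genes were not checked for this. The medians of the 30 groups kept their sign under RLE, DESeq2, no filter, the block and halved counts. Medians of 6 groups nonetheless moved by more than the replicate spread, without the filter for chemokines and interleukins (-0.53), cadherins and EMT factors (-0.46) and clock genes (0.16), and with halved counts for chemokines and interleukins (-0.33), recombination (1.85), HIF targets (-0.72) and lysosomes (-0.40). With single libraries left out, medians of 17 groups did so in at least 1 fit. The complement median then ran from -2.98 to -1.81, and those of ribosomal proteins (-0.04 to 0.01) and NRF2 genes (-0.01 to 0.08) crossed 0. The 9427 calls became 9426 with RLE factors (4471 higher, 4955 lower), 9335 with DESeq2 (4429 and 4906), 9344 without the filter, 8399 at an adjusted p under 0.05, 9188 with counts halved, and 9028 to 9233 with single libraries left out. With the replicate number as a block 9246 were called (4550 and 4696). Libraries of the same number did not deviate together (correlations of -0.0966 to 0.0872 over 18 pairs, against -0.134 to 0.0984 over 36 pairs of different number), so the numbers were not taken as pairing.

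With an interaction over 1.5-fold required, 4932 of the 16838 genes tested were called, 2185 higher and 2747 lower. Of these, 924 were higher and 1220 lower in WT8 only, 225 higher and 163 lower in 786O only, 774 changed the same way and more in WT8, 84 more in 786O, and 74 in neither line. The calls by group were then 14 of 31 tested for CDK inhibitors and p53 targets, 7 of 21 for MHC class I and 8 of 27 for NF-kB. They were 9 of 32 for glycolysis, 2 of 74 for the nuclear-encoded respiratory chain and 1 of 13 for mitochondrially encoded genes. Ribosomal proteins had 1 of 78, ribosome biogenesis 4 of 53, fatty acid genes 13 of 35 and ER chaperones 8 of 31. The ATF4 group had 20 of 41, the proteasome 13 of 31, lysosomes 20 of 57 and integrins 13 of 30. For TGF-beta and YAP the count was 11 of 36, for NRF2 13 of 31 and for cilium genes 12 of 50. Fewer genes pass by construction. Genes called in neither line numbered 282 without the filter and 107 with halved counts, and the cause was not tested. Mitochondrially encoded calls were 3 at an adjusted p under 0.05 and 3 to 9 with single libraries left out.

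Among the named genes COX1, NBN, TNIP1 and PXDN lost their call in at least 1 fit without a library, and NBN (0.13) also under RLE and DESeq2. ATP5B was called without 786O shControl replicate 2. With 3 libraries per group and a median SE of 0.14, small interactions may be missed. A gene near the floor of 3 counts gives no usable fold.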

Other observations

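The groups not described above were divided in direction. Interactions were called for 87.0% of the clock genes tested, 64.0% of cilium genes and 74.2% of CDK inhibitors and p53 targets. The shares were 80.6% for NRF2 genes, 63.9% for TGF-beta and YAP targets and 54.8% for ER genes, against 56.0% of all genes. Among 23 clock and clock output genes, 12 interactions were positive and 8 negative, with medians of 0.01 in 786O and 0.39 in WT8 and a median interaction of 0.42, or 0.16 without the filter on low counts. PER3, a clock repressor, changed by -0.45 and 0.93, and WEE1, a kinase that delays mitosis, by 0.27 and 1.77. Of 50 genes of cilium transport and the BBSome, 12 were positive and 20 negative, and 26 fell in each line. BBS1, a BBSome subunit, changed by -0.59 and -2.27. Among 31 CDK inhibitors and p53 targets, 12 were positive and 11 negative, with DDB2, a DNA damage sensor, at -0.24 and 1.37 and TP53INP1, a stress protein, at 0.69 and -1.23. NRF2 antioxidant genes had 12 positive and 13 negative interactions of 31, and AKR1C3, an aldo-keto reductase, changed by 1.00 and -2.09. Of 36 TGF-beta and YAP targets 11 were positive and 12 negative, with ANKRD1 at -0.08, not called, and 2.67 and NT5E, which makes adenosine, at 0.59 and -1.54. ER chaperones and unfolded protein response genes had 9 positive and 8 negative interactions of 31, and HERPUD1, of ER-associated degradation, changed by -0.50 and 0.52. These are values without a set test.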
